A study of Mus musculus with 12 samples.

Results

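The contactins and the contactin-associated proteins are neuronal surface proteins, and their transcripts were followed here in the brains of newborn wildtype mice and mice without the protein kinase KIS. The members were the genes Cntn1, Cntn2, Cntn3, Cntn4, Cntn5, Cntn6, Cntnap1, Cntnap2 and Cntnap4, found by their symbols among the main probesets of the table. The family was chosen by the opposite directions of Cntn1 and Cntn2 in the same comparison, so the differences of these genes between the genotypes are given as a description, with no test. Of the 9 members, 8 had a main probeset among 17550 gene symbols, and Cntn5 was not analysed here. They had 231 of the 221417 main probesets, and 230 of them were kept after the removal of probesets that varied by more than 0.4, as a relative standard deviation, within a genotype. The remaining gene of the table whose symbol starts with Cntn or Cntnap was Cntnap5b, with 19 probesets, which is given beside the members.

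Each of 12 whole brains gave the total RNA for 1 exon array (Affymetrix Mouse Exon 1.0 ST), on which short probes of the same exon are read as a probeset. The brains came from newborn females, 6 wildtype (KIS +/+) and 6 KIS-ko (KIS -/-), and the animals formed 6 pairs of littermates, 1 pair from each of litters 1 to 6. The knock-out, of Uhmk1, the gene that encodes KIS, was on a C57BL6/N background. The gene value used below is the mean, over the kept probesets of a gene, of log2(signal + 16), and a difference is KIS-ko minus wildtype on this scale, so the differences of dim genes are understated. As whole brains were powdered, fewer cells of a type and less RNA per cell cannot be told apart.

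Contactins are cell adhesion molecules of the immunoglobulin superfamily that are held in the outer leaflet of the membrane by a glycosylphosphatidylinositol anchor. Contactin-associated proteins span the membrane and are related to neurexins. In myelinated axons, contactin-1 (Cntn1) and Caspr (Cntnap1) form the axonal side of the paranodal junction beside the node of Ranvier, and contactin-2 (Cntn2, also called TAG or axonin) and Caspr2 (Cntnap2) hold potassium channels at the neighbouring juxtaparanode. Before myelination these proteins take part in axon growth, fasciculation and the formation of contacts between neurons, and most of the mouse brain is not yet myelinated at birth.

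The genotype labels were checked on Uhmk1, which was lower in KIS-ko brains by a difference of -2.11 (SE 0.068, adjusted p = 2.9e-07 from limma) and was the single gene of 17279 past the adjusted threshold of 0.05 (0.00579% of genes). The array medians lay between 460 and 526, and the median gene differed by -0.046, -0.086, 0.0023, 0.071, -0.052 and -0.11 between the littermates of litters 1 to 6. In all, 69.8% of genes were lower in KIS-ko, and the values of the members are therefore also given relative to the median gene of the same litter. Markers of neurons were well above the controls. The summed signal of 5 measured neuronal genes lay between 38062 and 41370 in wildtype and between 37743 and 39823 in KIS-ko. In all 5, most of the kept probesets exceeded a mean signal of 713, below which lay 95% of the 5222 probesets for intron controls. Probesets at or below this limit are called dim. The 8 markers of the oligodendrocyte lineage had a summed signal of 7702 to 9047 in wildtype and 7106 to 8728 in KIS-ko.

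**Figure D1:**
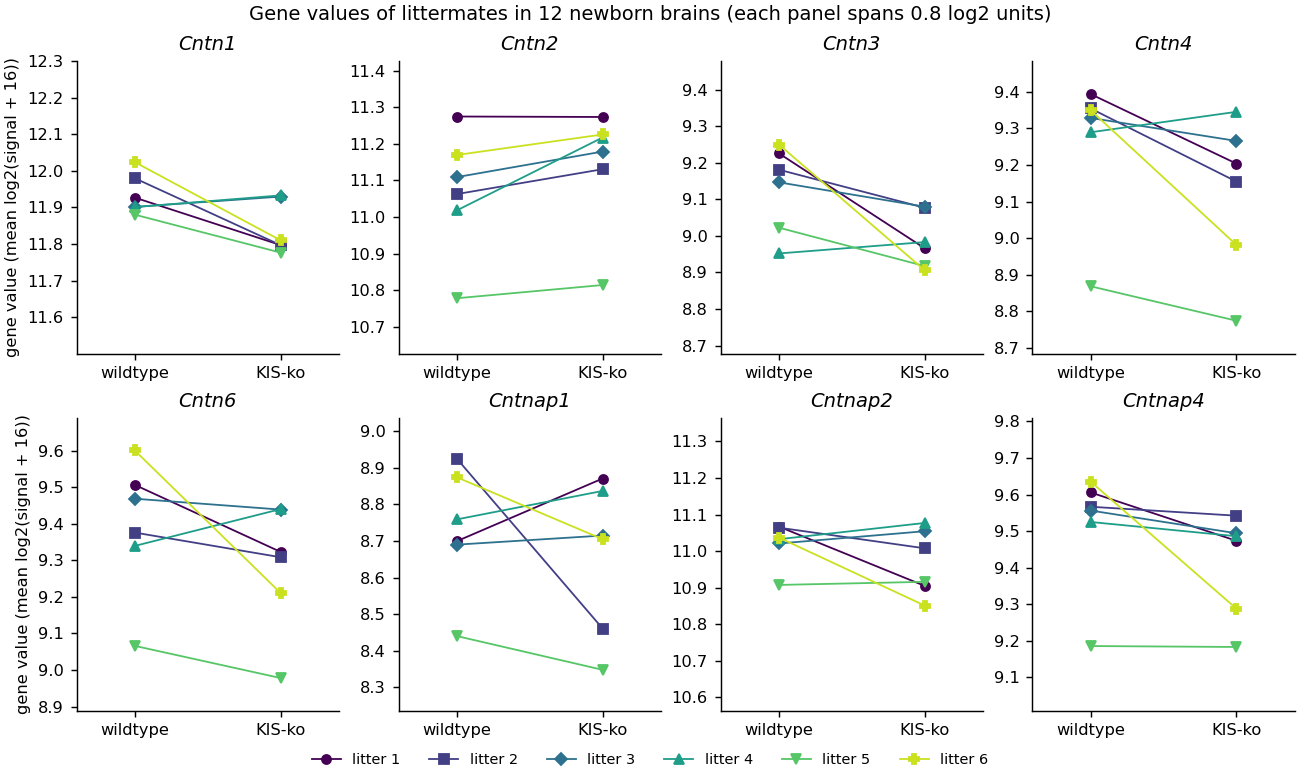
Gene values (mean log2(signal + 16) over the kept probesets) of the 8 measured members in each litter, with wildtype and KIS-ko littermates as separate points. The points of the genotypes overlap in every panel, and in litter 5 both animals have the lowest Cntn1, Cntn2, Cntn4, Cntn6, Cntnap1 and Cntnap4 values of their genotype.

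Cntn1 had a gene value that was lower in KIS-ko by 0.095 on average, which is 6.37% on the linear scale. The wildtype values ran from 11.88 to 12.02 with a median of 11.91, and the KIS-ko values from 11.78 to 11.93 with a median of 11.80, so the groups overlapped. From litter 1 to litter 6 the differences were -0.13, -0.18, 0.028, 0.032, -0.10 and -0.21. The KIS-ko animal was thus the lower one in 4 of 6 litters, as in at least 4 litters for 53.5% of all genes, and the other litters, 3 and 4, were those in which the median gene was not lower. The mean of -0.095 had an SD of 0.10 over the litters and a standard error of 0.052, and was -0.039 with centred arrays. Relative to the median gene the difference was -0.058 ± 0.048 (SD, n = 6 litters), below 0 in 5 of 6 litters, as in 5 or 6 litters for 13.2% of genes.

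Cntn2 went the other way. Its wildtype values ran from 10.78 to 11.27 with a median of 11.09, and its KIS-ko values from 10.81 to 11.27 with a median of 11.20, and these groups overlapped almost fully. The differences between littermates were -0.0013, 0.068, 0.070, 0.20, 0.036 and 0.056 in litters 1 to 6. The KIS-ko animal was higher in 5 of 6 litters, as in 5 or 6 litters for 6.15% of genes, and litter 1 showed hardly any difference. The mean was 0.071, or 5.07% on the linear scale, with an SD of 0.068 over the litters and a standard error of 0.047. It was 0.13 with centred arrays and 0.046 without litter 4. Relative to the median gene the Cntn2 difference was 0.11 ± 0.049 (SD, n = 6 litters) and above 0 in all 6 litters, as for 1.82% of genes. Since these directions chose the family, nothing is read from the shares.

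Subtracting the Cntn1 difference from the Cntn2 difference of the same litter leaves out what both share with the other genes of the array pair. The result was 0.13, 0.25, 0.042, 0.17, 0.14 and 0.27 in litters 1 to 6, with a mean of 0.17 ± 0.084 (SD, n = 6 litters), and it was above 0 in each of them. Litter 3 had the smallest value and litter 6 the largest. This, too, is a description of the pair that chose the family.

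**Figure D2:**
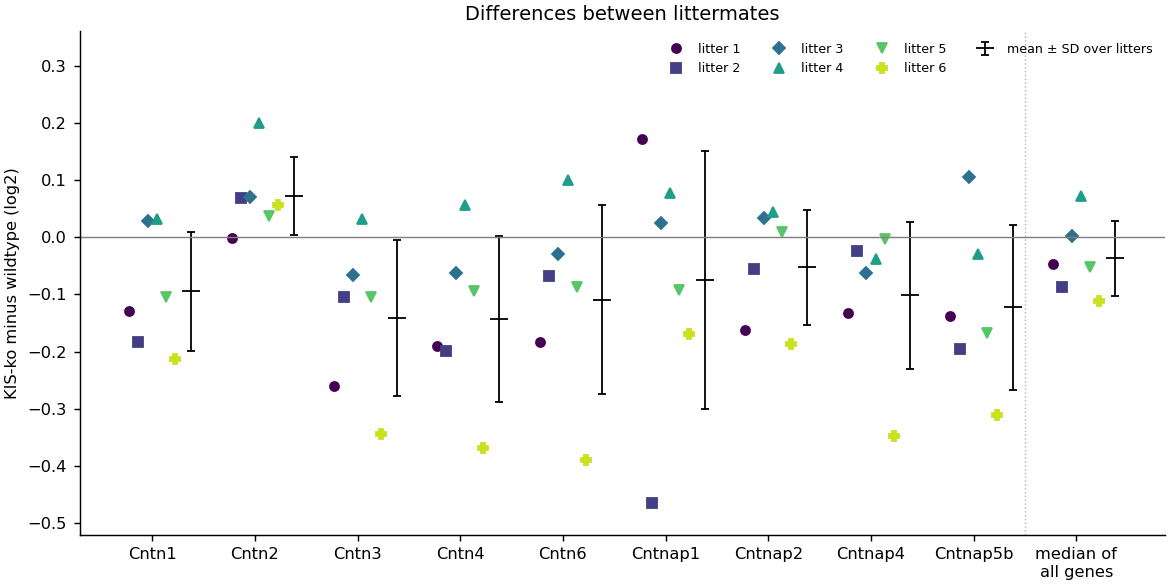
Difference of the gene value between littermates (KIS-ko minus wildtype, log2 scale) for each member and Cntnap5b, 1 point per litter, with the mean. Cntn2 is the one member with a mean above 0 (0.071), and Cntnap1 is the most scattered, from -0.46 in litter 2 to 0.17 in litter 1.

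Most probesets of Cntn1 and Cntn2 had the sign of their gene. Cntn1 is listed on the plus strand of chromosome 15 from 91991958 to 92170020 (positions as in the table, whose genome build is not named in the sources used here), with 27 probesets, all of which were above the intron control limit. All 27 (24 with centred arrays) were lower in KIS-ko on average, by 0.047 to 0.17, as were all probesets of 1.97% of the genes with at least 20 probesets. Their smallest difference, -0.047, lay at 92046839 to 92046877 and their largest, -0.17, at 92086297 to 92086396. Litter by litter, 24, 26, 10, 12, 22 and 27 of the 27 Cntn1 probesets were lower in the KIS-ko animal.

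Cntn2 is listed on the minus strand of chromosome 1 from 134406495 to 134439465 and had 36 probesets. Of these, 34 were higher in KIS-ko, with differences up to 0.16, as were at least 90% of the probesets in 0.323% of genes with at least 20. The exceptions were the probeset at 134413113 to 134413187, with -0.071, and that at 134420188 to 134420300, with -0.083, and both lie inside the gene with higher neighbours on each side. The 4 dim probesets of Cntn2 were those at its 3′ end, from 134406495 to 134407951, and they held the highest difference, 0.16, as well as one of the lowest, 0.0078. In litters 1 to 6, 14, 28, 29, 33, 19 and 27 of the 36 probesets were higher in the KIS-ko animal. Probesets of 1 gene are read on the same arrays and are not replicates.

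**Figure D3:**
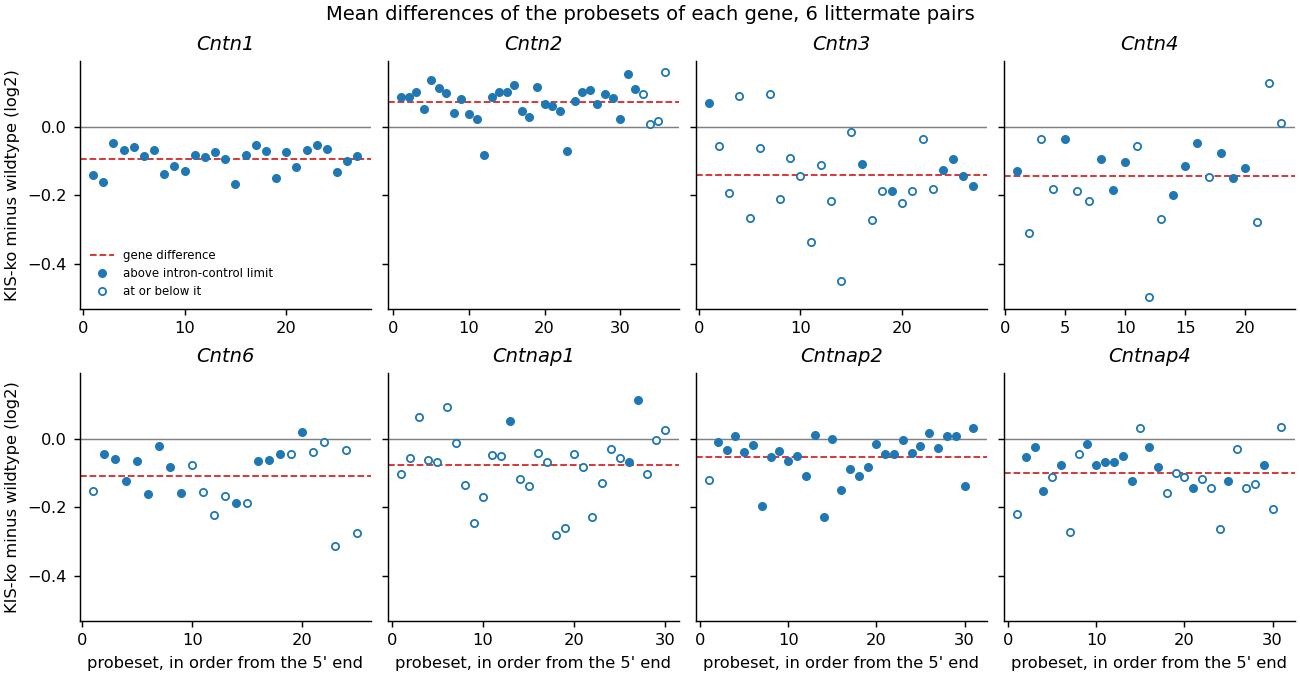
Differences of single probesets (KIS-ko minus wildtype, log2 scale, mean over 6 litters) in their order along each of the 8 measured members. Dim probesets are open points, and the dashed line is the gene difference. All 27 Cntn1 probesets lie below 0, and 34 of 36 Cntn2 probesets lie above 0.

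The promoter sequences of both genes are shown as reference, since these are the members that the family was chosen on, and the arrays do not bear on them. Both are from the RefSeq table for build GRCm38.p6 and hold the 250 bases before the first listed start of the gene, 5′ to 3′ on the coding strand, with CG dinucleotides in capitals. Cntn1 has 3 listed starts, and the sequence is from chr15:92050915-92051164 on the plus strand. That of Cntn2 is from chr1:132542941-132543190 on the minus strand.
Cntn1: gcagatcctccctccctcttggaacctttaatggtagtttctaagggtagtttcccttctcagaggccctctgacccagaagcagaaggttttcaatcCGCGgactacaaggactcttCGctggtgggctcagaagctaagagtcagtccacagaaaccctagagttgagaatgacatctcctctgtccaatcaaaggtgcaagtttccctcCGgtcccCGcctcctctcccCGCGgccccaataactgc
Cntn2: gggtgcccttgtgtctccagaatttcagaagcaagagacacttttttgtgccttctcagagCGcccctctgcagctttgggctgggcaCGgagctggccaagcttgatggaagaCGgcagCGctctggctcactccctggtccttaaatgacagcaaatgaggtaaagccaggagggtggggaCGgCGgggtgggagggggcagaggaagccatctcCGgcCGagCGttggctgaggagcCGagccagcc
The Cntn1 sequence had 7 CG dinucleotides and 53.6% G and C, and the Cntn2 sequence had 10 and 61.2%, against a median of 6 and 52.4% over 32851 listed promoters of this length. On either strand, CCAAT occurred 2 times before Cntn1 and not before Cntn2, and 33.8% of all promoters held it. Neither sequence held GGGCGG, found in 32.7% of promoters, or TATAAA, found in 12.4%. These letters are a description of the windows only. Promoter entries were found for 7 of the 9 members.

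The other contactins, Cntn3, Cntn4 and Cntn6, lie on chromosome 6 and had lower means in KIS-ko brains, none past the adjusted threshold. Cntn3, which is found in subsets of neurons, ran from 8.95 to 9.25 in wildtype (median 9.16) and from 8.91 to 9.08 in KIS-ko (median 8.97). The KIS-ko animal was lower in 5 of 6 litters, as in 5 or 6 litters for 22.5% of genes, the exception being litter 4 with 0.031, and the mean difference was -0.14 (SE 0.057, adjusted p = 0.685 from limma). Relative to the median gene it was -0.10 ± 0.093 (SD, n = 6 litters) and below 0 in all 6 litters, as for 1.6% of genes, and it was -0.086 with centred arrays. Of its 27 kept probesets, 24 were lower and 20 were dim.

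Cntn4, which takes part in the wiring of olfactory and visual axons, ran from 8.87 to 9.39 in wildtype (median 9.34) and from 8.77 to 9.35 in KIS-ko (median 9.18). It was lower in every litter but litter 4, by 0.37 in litter 6, and the mean difference was -0.14 (SE 0.059, adjusted p = 0.685 from limma). Of its 23 probesets, 21 were lower. Relative to the median gene the Cntn4 difference was -0.11 ± 0.087 (SD, n = 6 litters), also below 0 in all 6 litters, and it was -0.087 with centred arrays and -0.073 with the median over probesets, where its unadjusted p was not under 0.05. Cntn6, a contactin of developing sensory and motor pathways, ran from 9.07 to 9.60 in wildtype (median 9.42) and from 8.98 to 9.44 in KIS-ko (median 9.32). Its mean difference was -0.11 (SE 0.063, adjusted p = 0.685 from limma), with 24 of 25 probesets and 5 of 6 litters lower. Relative to the median gene it was -0.072 ± 0.12 (SD, n = 6 litters), below 0 in 4 of 6 litters, and the mean was -0.054 both with centred arrays and without litter 6. Litter 6 held the lowest difference of each of these 3 genes, from -0.34 to -0.39.

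The contactin-associated proteins had no difference past the threshold either. Cntnap1, the partner of Cntn1, was the least steady of the family. Its wildtype values ran from 8.44 to 8.92 (median 8.73) and its KIS-ko values from 8.35 to 8.87 (median 8.71). It was higher in the KIS-ko animal in 3 litters, by 0.17 in litter 1, and lower in the others, by 0.46 in litter 2. The mean of -0.075 (SE 0.077, adjusted p = 0.733 from limma) became 0.0025 without litter 2 and -0.12 without litter 1. It became 0.031 when dim probesets were left out, which kept only 3 of its 30. After subtraction of the median gene it was -0.038 ± 0.19 (SD, n = 6 litters), and no direction is given for Cntnap1.

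Cntnap2, the partner of Cntn2, had no steady direction. It ran from 10.91 to 11.07 in wildtype (median 11.03) and from 10.85 to 11.08 in KIS-ko (median 10.96), with 30 of 31 probesets above the intron control limit. The KIS-ko animal was lower in 3 of 6 litters, and the mean difference was -0.053 (SE 0.051, adjusted p = 0.726 from limma). It was 0.0027 after the arrays had been centred on their medians, -0.031 without litter 1 and -0.026 without litter 6, and relative to the median gene it was -0.016 ± 0.069 (SD, n = 6 litters). Cntnap4, which is known from synapses of interneurons, ran from 9.19 to 9.64 in wildtype (median 9.56) and from 9.18 to 9.54 in KIS-ko (median 9.48). It was lower in all 6 litters, as for 1.6% of genes, with -0.0026 in litter 5 and -0.35 in litter 6, and had a mean difference of -0.10 (SE 0.056, adjusted p = 0.685 from limma). When the median gene was subtracted Cntnap4 was below 0 in 4 of 6 litters, at -0.064 ± 0.11 (SD, n = 6 litters), and its mean was -0.046 with centred arrays and -0.052 without litter 6. Cntnap5b, outside the members, had a mean difference of -0.12 (SE 0.059, adjusted p = 0.685 from limma), with -0.067 for centred arrays and -0.077 with dim probesets left out, and was lower in 5 of 6 litters.

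Thus 7 of the 8 measured members had a lower mean in KIS-ko, where 69.8% of all genes did (6 of 8 and 37.8% with centred arrays), and Cntn2 was the exception, with the 30.2% of genes that were higher. In the same 7 members at least 80% of the probesets were lower, as in 36.2% of the genes with at least 20 probesets. The median over the members was -0.098, against -0.036 over all genes. With centred arrays these were -0.042 and 0.020, after a further quantile normalization -0.057 and 0.0017, and without litter 6 -0.055 and -0.022. Of the 6 members other than Cntn1 and Cntn2, none passed an adjusted p of 0.05 with limma, and 2, Cntn3 and Cntn4, had an unadjusted p under 0.05, both lower in KIS-ko. The count was 1 with centred arrays, where Cntn3 was no longer under that limit, and 0 without litter 1, 2, 5 or 6. Of all genes 6.16% had such a p, and 4.34% had it with a lower value in KIS-ko, which was 1.70% with centred arrays and 2.54% after a further quantile normalization. The wildtype and KIS-ko arrays overlapped for all 8, and they did not overlap for 0.208% of genes. Between litters, 7, 7, 4, 1, 6 and 7 of the 8 members were lower in the KIS-ko animal in litters 1 to 6, beside 64.6%, 69.1%, 49.0%, 30.3%, 66.1% and 70.3% of all genes. The members were thus low in those litters where most genes of the array were. Litter 6 gave the lowest difference of 6 of the 8 members, and 31.7% of all genes had theirs there.

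With the arrays compared probeset by probeset, 177 of the 230 member probesets (77.0%) were lower in KIS-ko, beside 66.2% of all probesets. With centred arrays the counts were 131 (57.0%) beside 43.5%, and after a further quantile normalization 146 (63.5%) beside 51.1%. Of the 167 probesets of the members other than Cntn1 and Cntn2, none passed the adjusted threshold with limma, which 0.00487% of all probesets passed, while 16 (9.58%) had an unadjusted p under 0.05, beside 6.63% of all probesets. This count was 9 (5.39%) with centred arrays and after a further quantile normalization, both beside 6.28%, and 6 (3.59%) without litter 6, beside 3.85%. The largest differences were in dim probesets of Cntn4 (-0.50 at 106473498 to 106473541) and Cntn3 (-0.45 at 102195133 to 102195158), neither of which the table marks as matching 1 place only. The signal of the Cntn3 probeset was 463 to 718 in wildtype and 277 to 480 in KIS-ko, so that the groups overlapped.

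Single parts of the transcripts were then set against their gene as a whole, with Cntn1 and Cntn2 described only, since the agreement among their probesets entered the choice of the family. The splicing index is here the log2 value of a probeset minus the mean of its gene on the same array. In Cntn1 the genotype difference of this index stayed between -0.070 and 0.048. In Cntn2 it ran from -0.15 to 0.087, and the lowest was the probeset at 134420188 to 134420300. Over the other members the range was -0.35 to 0.27, none of the 167 probesets passed the adjusted threshold (0.000985% of all probesets did), and 6 (3.59%) had an unadjusted p under 0.05, beside 6.11% of all probesets tested. The lowest adjusted p, 0.722, belonged to the dim Cntn3 probeset named above, with an index difference of -0.31.

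Apart from the genotype, the members differed between litters. The brains of litter 5 had the lowest value of their genotype, relative to the median gene of the array, in both wildtype and KIS-ko for 5 of the 8 members, namely Cntn2, Cntn4, Cntn6, Cntnap1 and Cntnap4. This was so for 9.12% of all genes. Without reference to the median gene it held for 6 of the 8, with Cntn1 added, and for 17.2% of all genes. With the array's median gene subtracted from each value, Cntn2 was lower in litter 5 than the mean of the other litters by 0.24 in wildtype and by 0.29 in KIS-ko, more than its difference between the genotypes. For Cntn4 the gap was 0.37 in wildtype and 0.32 in KIS-ko, and for Cntn6 0.29 and 0.27. For Cntnap1 it was 0.24 and 0.27, for Cntnap4 0.29 and 0.18, and for Cntnap5b 0.24 and 0.31.

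With the same subtraction the other members did not share this. Cntn1 stood 0.040 above the other litters in wildtype and 0.021 above them in KIS-ko, though without the subtraction it was the lowest of its genotype in litter 5. Cntn3 lay -0.022 and 0.013 from them, and Cntnap2 -0.031 and 0.035. On this scale the median over all genes of the gap was 0.083 in wildtype and 0.046 in KIS-ko, both above the other litters. Of the markers, also after subtraction, the neuronal list was 0.079 and 0.12 above, the cerebellar granule list 0.13 and 0.16 above and the forebrain list 0.020 and 0.0028 above. The hindbrain list stood 0.057 and 0.26 above, and the oligodendrocyte list 0.015 below in wildtype and 0.18 above in KIS-ko. The arrays of litter 5 also had the lowest medians of their genotype, 473 and 460, and the part of these in the litter's low values was not tested. Whether the litters were processed on different days is not given in the sources used here.

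**Figure D4:**
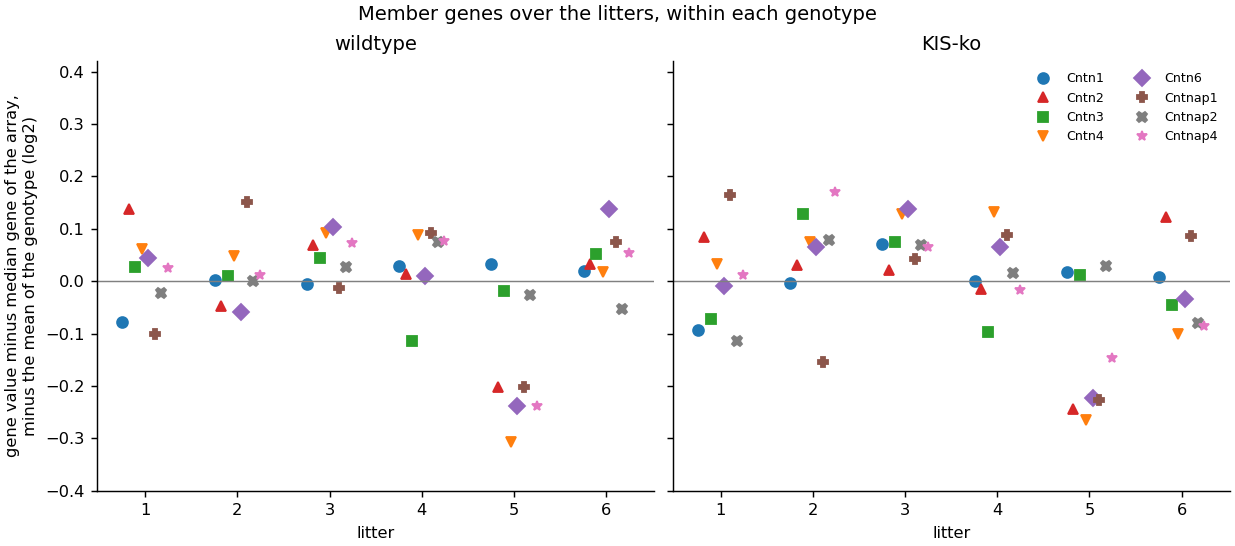
Gene values of the members minus the median gene of the same array, by litter, for wildtype and KIS-ko brains. In litter 5, Cntn2, Cntn4, Cntn6, Cntnap1 and Cntnap4 are the lowest of the 6 arrays in both genotypes, whereas Cntn1 is not.

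Whether partners moved together was asked within a genotype, where the genotype difference plays no part, on gene values minus the median gene of the array. Over the 6 wildtype arrays, Cntn1 and Cntn2 had a Pearson r of -0.707 (exact permutation p = 0.154, adjusted p = 0.767) and a Spearman rho of -0.829 (exact permutation p = 0.0583, adjusted p = 0.35), all two-sided and adjusted over 6 relations. Without the arrays of litters 1 and 5, which lay farthest from the Cntn1 median, r was -0.105, so the relation rests on those arrays. Over the 6 KIS-ko arrays r was -0.285 and rho -0.429 (exact permutation p = 0.45 and 0.419, adjusted p = 0.767 and 0.629), and r was -0.679 without litters 1 and 3.

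Cntn1 with Cntnap1 gave r = 0.204 and rho = -0.0286 in wildtype (exact permutation p = 0.731 and 1, adjusted p = 0.822 and 1), and r = 0.337 without litters 1 and 5. In KIS-ko it gave r = -0.369 and rho = -0.543 (exact permutation p = 0.511 and 0.297, adjusted p = 0.767 and 0.629), and again -0.369 without litters 1 and 3. Cntn2 with Cntnap2 gave r = 0.116 and rho = 0.0857 in wildtype (exact permutation p = 0.822 and 0.919, adjusted p = 0.822 and 1), and r = 0.0395 without litters 1 and 5. In KIS-ko it gave r = -0.446 and rho = -0.429 (exact permutation p = 0.425 and 0.419, adjusted p = 0.767 and 0.629), and r = -0.683 without litters 5 and 6. None of the 6 relations passed the threshold. The sign of r depended on the subtraction: without it, the r of Cntn1 with Cntn2 was 0.502 in wildtype and 0.397 in KIS-ko, and that of Cntn1 with Cntnap1 in KIS-ko was 0.531, so no direction is given for these relations. Also without it, r in wildtype was 0.805 for Cntn1 with Cntnap1 and 0.876 for Cntn2 with Cntnap2. With dim probesets left out, that of Cntn1 with Cntnap1 in wildtype was 0.946. None of these passed the adjusted threshold.

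The genes whose values over the 12 arrays were most like those of Cntn1, relative to the array median, were Car8 (r = 0.802), Gabra3, Cpe, Pxk and Ankrd13c (r = 0.766). For Cntn2 they were Dnmt1, a DNA methyltransferase (r = 0.936), Fdft1, Smarca4, Nedd4l and Scnm1 (r = 0.910). All 5 genes like Cntn2 were also the lowest in both arrays of litter 5, and without that litter their r with Cntn2 was 0.772 to 0.866 over 10 arrays. The genes like Cntn1 were not lowest there, and their r was 0.762 to 0.822 without it. The points share arrays, litters and depth of signal, and the correlations are a description.

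Known partners of the contactins and contactin-associated proteins, a list of 26 genes of which 23 were measured, had a median difference of -0.043, beside -0.036 over all genes. Of them, 19 (82.6%) were lower in KIS-ko and 4 higher, beside 69.8% of all genes lower. After the arrays had been centred on their medians 6 of 23 were lower, beside 37.8% of all genes, so no direction is given for the list. None passed the adjusted threshold with limma (lowest adjusted p = 0.685), and 1 had an unadjusted p under 0.05, Scn2b, a sodium channel subunit that binds contactin-1, with -0.14 (SE 0.060, adjusted p = 0.685 from limma). Scn2b was -0.087 with centred arrays, no longer under that limit, and -0.29 with the median over its probesets.

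The adhesion molecules of the L1 family, which bind contactins on the same or the facing membrane, had differences of -0.034 (L1cam), -0.047 (Chl1), -0.043 (Nrcam) and 0.0020 (Nfasc). Nfasc, whose glial form is the partner of contactin-1 at the paranode, is listed close to Cntn2 on chromosome 1, from 134467014 to 134539423, and had an SE of 0.046. Of the juxtaparanodal potassium channel genes, Kcna1 stood at 0.065 (SE 0.053), Kcna2 at -0.064 (SE 0.055) and the subunit gene Kcnab2 at -0.049 (SE 0.058), and Adam22, which lies at the same place, at -0.057 (SE 0.055). The prion protein gene Prnp had -0.068, App -0.061, and the kinase gene Fyn, downstream of contactins in the cell, -0.053. On the deposited scale none of these genes had an unadjusted p under 0.05. Kcna1 was 0.12 with centred arrays and 0.11 after a further quantile normalization, both at an unadjusted p under 0.05 (adjusted p = 0.733 and 0.702 from limma), but 0.0060 with the median over its probesets and 0.033 without litter 3.

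**Figure D5:**
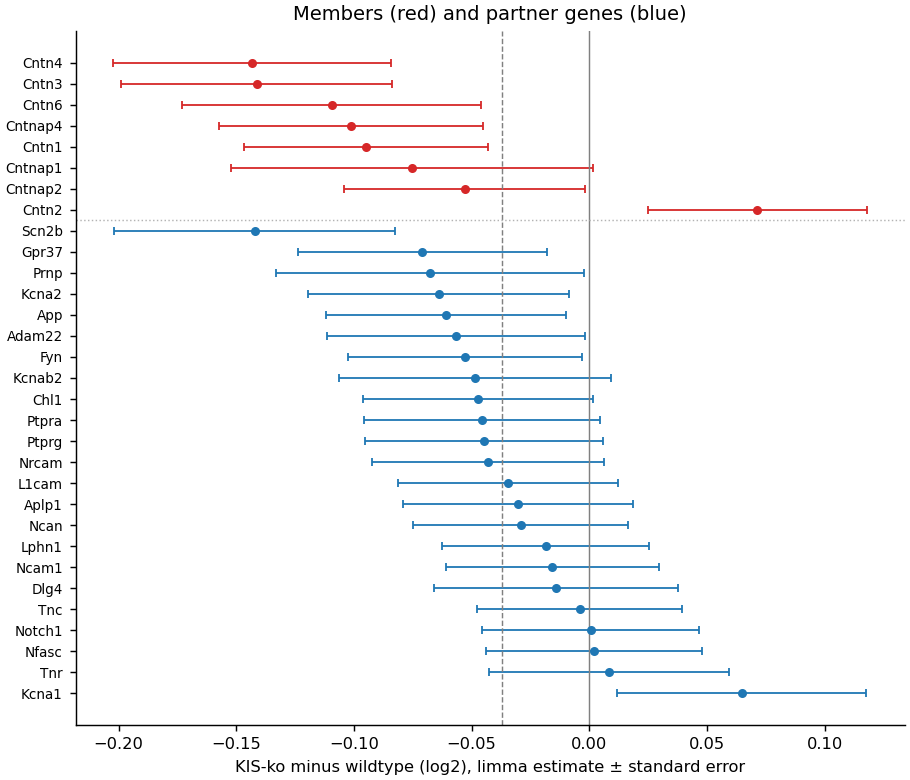
Differences (KIS-ko minus wildtype, log2 scale) with standard errors from limma for the measured members and the 23 measured partners. Among the members Cntn2 lies above 0 at 0.071, and the partners lie between -0.14 and 0.065.

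Markers of the cell types and regions that a whole brain could hold in unequal shares had no gene past the adjusted threshold, and their differences are given on the deposited scale. On this scale 69.8% of all genes were lower in KIS-ko, with a median of -0.036, and 6.16% had an unadjusted p under 0.05 with limma. The differences of the lists were not recomputed with centred arrays, so no direction is given for them. Of the neuronal list 4 of 5 were lower in KIS-ko with a median of -0.035, and of the oligodendrocyte list 7 of 8 with a median of -0.047. The 6 markers of astrocytes and radial glia were all lower, with a median of -0.096, summed signals of 22413 to 25901 in wildtype and 21101 to 24181 in KIS-ko, and 0 past the adjusted threshold (1 at an unadjusted p under 0.05). The cerebellar granule list had 5 of 6 lower with a median of -0.065, and the hindbrain list 5 of 6 with a median of -0.091, 0 past the adjusted threshold and 2 at an unadjusted p under 0.05. The summed signal of the hindbrain list was 6009 to 6982 in wildtype and 5990 to 7075 in KIS-ko. Only 1 of its 6 genes had most of its probesets above the intron control limit. Of the forebrain list 1 of 6 was lower, and the median was 0.037, with summed signals of 17111 to 19174 in wildtype and 17124 to 20211 in KIS-ko. The part of these markers in the member differences was not tested. Choroid plexus (3 of 6 lower), meninges (3 of 5), endothelium (5 of 5), microglia (3 of 4) and erythroid markers (1 of 3) had medians of 0.0059, -0.087, -0.052, -0.017 and 0.032.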

How the data were processed

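Total RNA of 12 newborn brains was measured on exon arrays, which the authors normalized by quantiles and summarized by PLIER in the Affymetrix Expression Console. The intensity deposited for each probeset and array is linear. The versions of these tools are not given in the sources used here. The members and the lists of partners and markers were chosen with earlier results of these data known.

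Main probesets with a symbol were used, and the relative standard deviation filter of the methods (0.4 in either genotype) removed 15948 of 221417 (7.20%). Genes and probesets were tested over the whole table with limma 3.58.1 in R 4.3.3 on log2(signal + 16), blocked by litter, and p-values were adjusted by Benjamini-Hochberg (threshold 0.05). Splicing indexes were tested in genes with at least 3 probesets. Correlations were computed in Python 3.11.15 with scipy 1.17.1, numpy 2.4.6 and pandas 2.3.3, and plots with matplotlib 3.10.9. The fits were run on simulated data with independent noise for each probeset and array and no litter effect. The planted gene differences were larger than those of the members, so the run does not bear on differences of their size. As littermates are separate animals, the p-values measure the spread between animals.

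The pairing comes from the litter in the labels. After the mean of each genotype was subtracted, littermates correlated at -0.093 to 0.325, against a mean of -0.015 between other arrays. No 2 arrays were identical (r from 0.978 to 0.992). The number of arrays and the signal over background limit the precision: 138 of the 230 member probesets were above the intron controls and 92 were dim, and 217 match 1 place.

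Named were the members, the rest of the family, the partners, Uhmk1, the 5 genes most correlated with Cntn1 and with Cntn2 among genes with at least 4 probesets and a signal above the controls, and the extreme probesets of each member. Alternatives tried were no litter block, a pseudocount of 1 or of 64, no filter on relative standard deviation, bright probesets alone, arrays centred on their medians, a further quantile normalization, medians in place of means over probesets, probesets matching 1 place, the fold change of the methods, the methods' t-test (a paired test that they name for Q-PCR, not for the arrays), and each litter left out in turn. For the correlations, the settings without subtraction of the array median, with medians over probesets and with probesets matching 1 place were chosen after seeing the data. Of the markers, Map2, Emx1 and Hoxb5, and of the partners Epb41l3 and Ptprz1, were not analysed here, and 1 listed item is not reported here.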

Additional observations from a re-analysis of the deposited data

Results flagged for a closer look

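A value was singled out where 1 of 6 arrays or litters stood far from the nearest of the others, with a gap above Dixon's critical share of the whole range. Of 36 groups looked at, 5 had such a value, and chance gives about 1 in 20. In KIS-ko the Cntn2 gene value of litter 5 was 10.81, and the nearest was 11.13. In wildtype, litter 5 was also far below the others for Cntn4 (8.87, nearest 9.29), Cntnap2 (10.91, nearest 11.02) and Cntnap4 (9.19, nearest 9.52). Relative to the array median, the Cntnap2 value of litter 5 was not the lowest in wildtype. The difference of Cntn2 between the littermates of litter 4 was 0.199, and the nearest was 0.070 in litter 3. Without litter 4 the mean Cntn2 difference was 0.046.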

How the results depend on the processing

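Under every alternative 6 or 7 of the 8 members were lower in KIS-ko, and none of the 6 other than Cntn1 and Cntn2 passed the adjusted threshold. Cntn1 remained lower (from -0.12 without litter 4 to -0.039 with centred arrays) and Cntn2 higher (from 0.046 without litter 4 to 0.13 with centred arrays), and centring moved the median gene from -0.036 to 0.020. The count of members other than Cntn1 and Cntn2 at an unadjusted p under 0.05, 2 in the report, was 0 with the methods' t-test, 1 without the filter on relative standard deviation, with dim probesets left out, with centred arrays and with the median over probesets, and 0 to 3 with a litter left out (3 without litter 4, where 22.6% of all genes had such a p). Without the replicate block it was 1, and that for the partners was 0. The partner count, 1 in the report, was also 0 with the methods' t-test and without the filter, and 0 to 1 with a litter left out. With centred arrays 6 partners were lower. Cntnap1 turned to 0.031 with dim probesets left out and to 0.0025 without litter 2, but was -0.12 without litter 1. Cntnap2 turned to 0.0027 with centred arrays. Of the 167 probesets of these members, 16 in the report, 6 of 79 had an unadjusted p under 0.05 with dim ones left out, 9 with centred arrays and with a further quantile normalization, and 6 to 30 with a litter left out (30 without litter 4, beside 16.1% of all probesets). For their splicing indexes, 6 in the report, the counts were 1 of 79 with dim ones left out and 3 to 19 with a litter left out (19, or 11.4%, without litter 4, beside 12.2% of all). With dim probesets left out, r of Cntn1 with Cntn2 moved from -0.707 to -0.107 in wildtype and turned to 0.061 in KIS-ko, and r of Cntn1 with Cntnap1 moved from 0.204 to 0.946 in wildtype (exact permutation p = 0.0111, adjusted p = 0.0667) and turned to 0.058 in KIS-ko. In settings chosen after seeing the data, r without subtraction of the array median turned to 0.502 and 0.397 (Cntn1 with Cntn2, wildtype and KIS-ko), 0.531 (Cntn1 with Cntnap1, KIS-ko) and 0.131 (Cntn2 with Cntnap2, KIS-ko), and moved in wildtype to 0.876 for Cntn2 with Cntnap2 (exact permutation p = 0.0375, adjusted p = 0.158) and 0.805 for Cntn1 with Cntnap1 (exact permutation p = 0.0528, adjusted p = 0.158). With the median over probesets, r of Cntn2 with Cntnap2 turned to -0.272 in wildtype and 0.042 in KIS-ko. The cause was not tested. The adjusted p of members other than Cntn1 and Cntn2 ranged from 0.145 to 1 over the alternatives.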
